A study of Mus musculus with 6 samples.

Results

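This account covers the counted small nucleolar RNA (snoRNA) genes of AE9a leukemia cells. They were chosen by the deposited gene_biotype snoRNA and by a sum of at least 60 counts over all 6 libraries, so their abundance was used to select them and is given as a description only. There were 67 such genes among 1507 snoRNA genes and 54532 genes in the table. By name, 17 were box C/D genes (Snord), 8 were H/ACA genes (Snora) and 42 carried other names, nearly always a Gm number. AE9a is a short splice form of the AML1-ETO fusion of t(8;21) acute myeloid leukemia, and the cells came from C57BL/6 mice transplanted with leukemia that a retrovirus carrying AE9a had started. Both groups carried the fusion, and the labels name no drug for either. Central bone marrow (CBM) cells were flushed from femurs and tibias, and endosteal bone marrow (EBM) cells were then released from the same kind of bones by collagenase I, so the enzyme step went with the region in all libraries, and their effects cannot be told apart. Each region had 3 libraries made from rRNA-depleted RNA. The labels do not say whether libraries came from separate mice, so p-values measure only the spread between these libraries.

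snoRNAs are short RNAs of the nucleolus that guide chemical modification of ribosomal RNA. Box C/D snoRNAs carry a C box near the start and a D box near the end and direct ribose methylation, whereas H/ACA snoRNAs carry an H box in the hinge and an ACA triplet near the end and direct the change of uridine to pseudouridine. In mammals most are cut out of spliced introns of host genes, many of which encode ribosomal proteins or translation factors.

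The sequences of members that carry the results below are shown from the GENCODE M21 transcripts (GRCm38), each on its own strand. In the first set, members with box C/D letters are shown because they were the most abundant or had the smallest p, and because 2 pairs share a host gene. Capitals mark TGATG (C box) and CTGA (D box).
Snord104: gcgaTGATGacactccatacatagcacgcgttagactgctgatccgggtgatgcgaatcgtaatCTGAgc
Gm25835: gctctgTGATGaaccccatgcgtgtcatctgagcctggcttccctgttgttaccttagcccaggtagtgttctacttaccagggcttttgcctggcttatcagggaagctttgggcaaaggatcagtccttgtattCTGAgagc
Gm23136: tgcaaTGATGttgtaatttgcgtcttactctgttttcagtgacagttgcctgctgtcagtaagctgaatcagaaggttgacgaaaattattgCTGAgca
Snord72: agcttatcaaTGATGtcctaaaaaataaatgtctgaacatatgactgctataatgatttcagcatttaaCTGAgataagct
Gm22888: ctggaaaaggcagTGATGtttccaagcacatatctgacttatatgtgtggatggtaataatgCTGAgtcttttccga
Snord49a: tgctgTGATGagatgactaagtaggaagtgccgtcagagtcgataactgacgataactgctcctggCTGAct
Snord49b: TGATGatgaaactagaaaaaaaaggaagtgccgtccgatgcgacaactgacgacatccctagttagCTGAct
Rnu73b: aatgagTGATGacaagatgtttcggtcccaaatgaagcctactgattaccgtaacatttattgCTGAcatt
Snord73a: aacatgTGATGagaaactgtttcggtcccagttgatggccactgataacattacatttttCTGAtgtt
The second set has members with an ACA triplet close to the end, the last of which is marked by capitals. In Snora41 an overlapping ACA stands just before the marked triplet. Snora31 and Snora41 had every EBM library below every CBM library, Snora57 had like values in both regions, and Gm25788 and Gm22154 are near copies in introns of Pabpc4.
Snora31: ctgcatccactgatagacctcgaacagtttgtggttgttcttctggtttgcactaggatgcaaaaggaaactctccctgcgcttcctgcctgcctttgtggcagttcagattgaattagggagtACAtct
Snora41: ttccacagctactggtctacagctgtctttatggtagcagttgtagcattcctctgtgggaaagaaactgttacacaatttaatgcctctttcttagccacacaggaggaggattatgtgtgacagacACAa
Snora57: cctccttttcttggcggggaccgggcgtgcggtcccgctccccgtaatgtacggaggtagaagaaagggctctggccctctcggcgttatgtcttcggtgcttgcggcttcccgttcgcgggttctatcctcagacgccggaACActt
Gm22806: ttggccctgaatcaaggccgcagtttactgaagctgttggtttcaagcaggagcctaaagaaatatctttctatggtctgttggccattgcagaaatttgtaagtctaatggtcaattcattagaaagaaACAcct
Gm25788: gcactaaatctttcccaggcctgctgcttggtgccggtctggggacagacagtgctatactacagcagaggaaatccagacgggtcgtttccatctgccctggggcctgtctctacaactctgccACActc
Gm22154: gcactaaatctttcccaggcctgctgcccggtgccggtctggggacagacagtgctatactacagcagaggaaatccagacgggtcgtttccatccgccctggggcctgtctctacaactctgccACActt
For 2 members neither set of letters was found in the windows searched. Gm22362 was among the most abundant members. Gm24347, which RefSeq lists as a pseudogene, was the sole member with every EBM library above every CBM library.
Gm22362: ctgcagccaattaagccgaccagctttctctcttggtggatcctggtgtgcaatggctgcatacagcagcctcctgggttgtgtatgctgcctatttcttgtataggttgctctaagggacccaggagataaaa
Gm24347: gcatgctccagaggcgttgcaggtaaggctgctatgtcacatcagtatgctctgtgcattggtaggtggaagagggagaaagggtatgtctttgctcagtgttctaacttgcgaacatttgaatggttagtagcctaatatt

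Snord104 lies at chr11:106500993-106501062 on the plus strand, and M21 has no longer gene around it on that strand. Gm25835 lies at chr11:69668852-69668995 in an intron of Eif4a1, an RNA helicase of translation initiation. Gm23136 lies at chr9:64176661-64176759 in an intron of Rpl4, which encodes a protein of the large ribosomal subunit. Snora31 is at chr14:75847905-75848034 within Tpt1, which encodes the translationally controlled tumor protein. Snora41, at chr1:63179004-63179135, is within Eef1b2, a subunit of the translation elongation factor 1 complex. Snord49a, Snord49b and Snord65 sit in 1 host, the noncoding gene 2410006H16Rik, and Snord49a is at chr11:62603450-62603521.

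The letters divided the members largely as their names did. Searched on the gene's own strand only, 15 of the 17 Snord members (88.2%) had both TGATG in the first 20 bases and CTGA in the last 20, and all 8 Snora members had ACA in the last 8 bases and not the C/D letters. Among the 42 members with other names, 13 had the C/D letters and 22 the ACA letters without them, while 7 had neither. Over all 1507 snoRNA genes the C/D letters were found in 23.6% and the ACA letters alone in 45.7%. In 4096 other annotated snRNA, miRNA, misc_RNA and rRNA genes of 60 to 260 bases these shares were 0.171% and 11.9%. TGATG is part of the longer TGATGA, which 12 of the 17 Snord members had, and it can share bases with CTGA. The H box letters ANANNA were found midway along 7 of 8 Snora members but also of 44.8% of the other small RNA genes. In 23 of 29 members of the ACA pattern with a sequence read here exactly 3 bases followed the last such triplet. The window for the H box was the middle part of the gene when cut into 3 equal lengths.

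Ends of the C/D members could often pair with each other. Counted inward from both ends, 11 of 24 with a sequence read here had at least 3 Watson-Crick pairs in a row, against 0 of 29 members of the ACA pattern. Snord70, within Nop58, had 12 such pairs, and Snord72 and Snord83b had 8 each. Some members of a shared host also shared runs of bases: Snord49a and Snord49b had aggaagtgccgtc in common, and Rnu73b and Snord73a, both within Rps3a1, had tgtttcggtccca. In other such pairs the longest shared run was only 6 or 7 bases, as for Snord49a with Snord65 and Gm23136 with Gm22571. RefSeq names Rnu73b as Snord73b. Gm25788 and Gm22154 were 96.9% identical, and Gm22270 and Gm26387, both within Rpl5, were 94.7% identical. How reads that match 2 such copies were counted is not given in the sources used here, so the split within these pairs is uncertain.

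Whether a snoRNA gene had counts went with its place in the annotation. Of the 1507 genes, 170 overlapped an exon of another gene on their own strand in M21, and 2 of these 170 (1.18%) reached 60 counts, against 65 of 1337 (4.86%) without such an overlap. Within hosts that themselves had at least 10000 counts over the 6 libraries the gap was wider. There 99 of 107 snoRNA genes without an exon overlap (92.5%) had a count and 47 (43.9%) were members, while 10 of 111 with an overlap (9.01%) had a count and 2 (1.8%) were members. Gas5, a noncoding host gene of C/D snoRNAs, had 7696, 11078 and 10359 counts in CBM and 8914, 8387 and 9048 in EBM, yet all 10 snoRNA genes within it were listed at 0, and all 10 overlapped its annotated exons. The same was seen for the 8 snoRNA genes of Snhg1 and the 5 of Snhg12. A count of 0 here says that no read was assigned to the gene, not that the snoRNA was absent from the cells. Of the 67 members 65 lie clear of any annotated exon on their strand, and a read from the unspliced intron and a read from the mature snoRNA cannot be told apart in these counts.

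**Figure D1:**
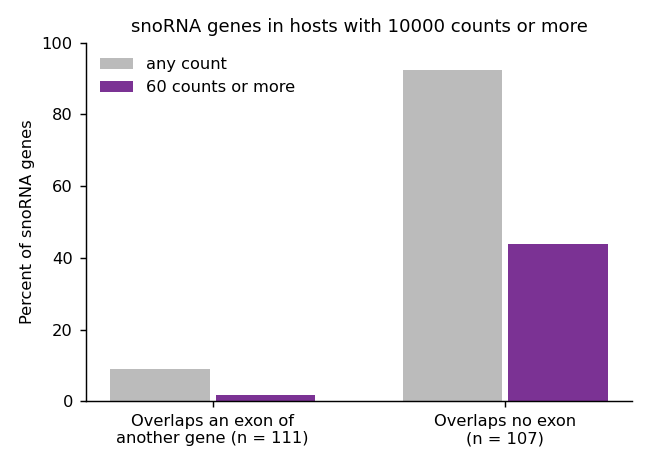
Bars give the percent of snoRNA genes with any count (grey) and with at least 60 counts summed over the 6 libraries (purple), for snoRNA genes inside hosts with at least 10000 counts. Of those that overlap an exon of another gene on their strand 9.01% had a count, and of those that overlap none 92.5% did.

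Members were 64 to 246 bases long, with a median of 79 bases for box C/D and 131.5 for H/ACA. Their count sums ran from 60 to 1045, with a median of 135, and they held 83.7% of all snoRNA counts. As RPKM (CPM divided by the deposited gene length in kilobases), the level over all libraries ran from 3.83 for Gm24119 to 137.6 for Snord104, with a median of 11.5. On that scale Gm24494, within Rabggtb, stood next at 69.5, followed by Snord58b at 63.6, Snord49a at 59.4 and Snord55 at 54.0. At the rule's edge, Gm22980 had 60 counts, Gm22888 had 61, and Snora69 and Gm24347 had 64. Just outside it Gm25588 and Gm26287 had 59 counts and Snord98 had 55.

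The libraries had between 16436526 and 19462964 counts, and 3 counts corresponded to 0.149 to 0.193 CPM (counts scaled to library size by the TMM factors of edgeR), a floor for counting error only. The first principal component of all genes, with 53% of the variance, did not separate the regions, whereas the second, with 19.7%, did. Kit, which marks these blast cells, was at 220 ± 8.15 CPM in CBM and 220 ± 22.2 in EBM (SD, n = 3). The other progenitor markers fixed were less even. Mpo was at 6.56 ± 7.26 CPM in CBM and 20.8 ± 15.1 in EBM, and Cd34 at 7.13 ± 7.37 and 9.36 ± 7.65. Both overlapped between the regions, and Cebpa was at 0.247 and 0.287 CPM, so matched blast cells are not read from Kit. The markers fixed for osteoblasts, 2 of 5 at 0 in all libraries, summed to 0 to 0.263 CPM in CBM and 0 to 0.445 in EBM. Erythroid markers summed to 1960 to 5000 CPM in CBM and 2320 to 3360 in EBM, neutrophil markers to 1.24 to 96.2 and 13.7 to 61.7, and T cell markers to under 1 CPM in every library. Counts of mitochondrial rRNA genes were 7252 to 8517 in CBM and 10656 to 11947 in EBM. Their part in the results was not tested, and fewer cells of a type and less RNA per cell cannot be told apart in such bulk libraries.

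As a sum, the snoRNA genes were lower in EBM than in CBM. All 67 members together had 2636, 3121 and 3044 counts in the CBM libraries and 2059, 2237 and 2054 in the EBM libraries. Scaled as CPM, they summed to 149.997, 164 and 151 in CBM and 114, 125 and 132 in EBM, so that no EBM library reached any CBM library. The means were 155 ± 7.98 and 123 ± 9.21 CPM (SD, n = 3), which puts EBM at 79.5% of CBM. Unscaled, the members held 0.0154% to 0.0166% of the counts of a CBM library and 0.0112% to 0.0125% of an EBM library.

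Box C/D and H/ACA genes both had lower mean sums in EBM, with different amounts of overlap. The 17 box C/D members summed to 43.4, 49.9 and 41.5 CPM in CBM and to 35.9, 33.4 and 41.8 in EBM, where replicate 3 lay above the lowest CBM library. The 8 H/ACA members summed to 22.9, 16.5 and 15.3 CPM in CBM and to 12.8, 14.4 and 15.04 in EBM, without overlap, although the CBM mean rests in part on replicate 1. Without that library EBM was at 88.4% of CBM in place of 77.2%. The 42 members with other names summed to 83.8, 97.9 and 94.2 CPM in CBM and to 64.9, 76.8 and 75.2 in EBM, also without overlap. Classed by letters in place of names, a choice made after the data were seen, the 28 members with C/D letters were at 76.6% of CBM and the 30 with ACA letters at 79.5%.

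**Figure D2:**
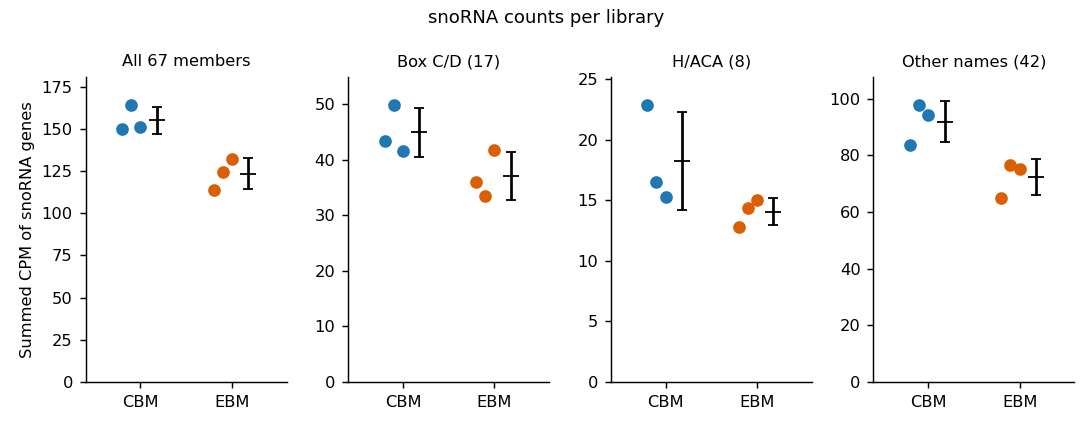
Each point is 1 library and gives the summed CPM of the member genes, for all 67 members and for the box C/D, H/ACA and other members; bars give the mean and SD of each region. For all members the CBM libraries sit between 149.997 and 164 CPM and the EBM libraries between 114 and 132.

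Across single genes the direction was shared by most members, and no single member passed the adjusted threshold. Of the 65 members that passed the filter on low counts, 55 (84.6%) had a log2 fold change (EBM over CBM) below 0, beside 49.6% of all 13352 genes tested. The filter left out Snord8 and Gm24347, and with all 67 in the fit 56 were below 0. The members' median log2 fold change was -0.28, beside 0.00 over all genes tested, with the middle part of the members between -0.58 and -0.11. By class, 14 of 16 box C/D members were below 0 with a median of -0.29, 7 of 8 H/ACA members with a median of -0.19, and 34 of 41 others with a median of -0.28. The H/ACA median moved both ways when a library was left out. It was -0.127, -0.225 and -0.387 without CBM replicate 1, 2 and 3 in turn. Without EBM replicate 1, 2 and 3 in turn it was -0.283, -0.148 and -0.364. Under the quasi-likelihood test of edgeR 0 members were called at an adjusted p of 0.05, as were 0% of all genes, and the smallest adjusted p of a member was 0.361. DESeq2 also called 0 members, beside 1.39% of all genes called in either direction and 0.349% called lower in EBM. It gave some members with low counts no adjusted p, among them Gm22888.

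At an unadjusted p under 0.05, 6 of 65 members (9.23%) were lower in EBM beside 3.9% of all genes, and 0 were higher beside 4.01%. Without CBM replicate 1, 2 and 3 in turn there were 5, 3 and 5 lower and 0, 1 and 1 higher. Without EBM replicate 1, 2 and 3 in turn there were 4, 5 and 10 lower and 0, 0 and 1 higher. These fits tested 66 or 67 members, and the shares of all genes in them are not given here. Every EBM library lay below every CBM library for 12 members (18.5%), beside 7.65% of all genes. The reverse held for 0 of the members tested, beside 7.47% of all genes. Among 147 other genes of at most 300 bases 42.2% were below 0. Of genes outside the snoRNA class within the members' range of average level, 56.6% of 4290 were below 0. Among 40 other genes of at most 300 bases inside introns of a gene on their strand, 24 were below 0 with a median of -0.16. That pool was mixed. In it 4 of 4 scaRNA genes, 4 of 5 snRNA genes and 9 of 14 miRNA genes were below 0. So were 6 of 13 processed pseudogenes, 1 of 2 misc_RNA genes and 0 of 2 genes of biotype TEC. Of other nuclear RNA classes, 11 of 15 snRNA genes and 5 of 7 scaRNA genes (small Cajal body RNAs, which guide modification of snRNAs) were below 0, with medians of -0.44 and -0.38. Of miRNA genes 13 of 24 were below 0 and of misc_RNA genes 5 of 10, with medians of -0.06 and 0.04.

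**Figure D3:**
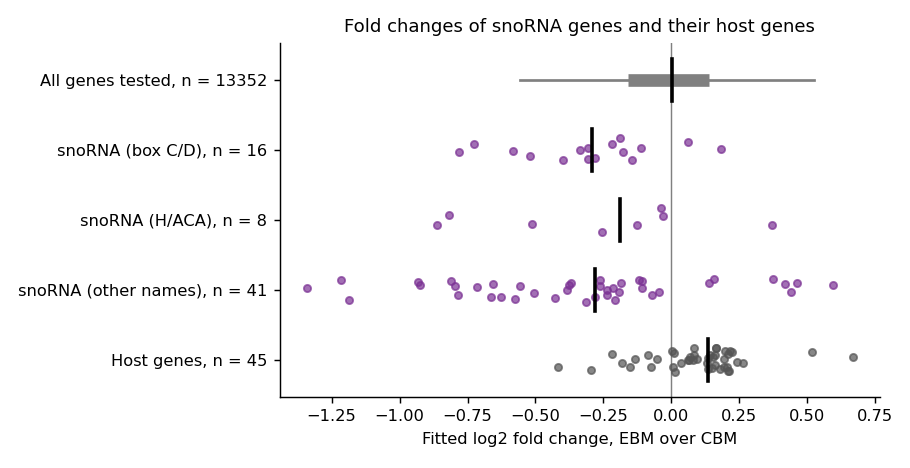
Fitted log2 fold changes, EBM over CBM, for all 13352 genes tested (grey bar, middle 50% of genes; grey line, 5th to 95th percentile) and, as points, for snoRNA genes by class and for their host genes; black bars are medians. The medians are -0.29 for box C/D, -0.19 for H/ACA and -0.28 for other members, and 0.13 for 45 host genes.

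Among box C/D members, Snord104 was the most abundant, with 9.39, 10.7 and 10.3 CPM in CBM and 9.61, 7.63 and 10.2 in EBM. The regions overlapped, and its log2 fold change was -0.15 ± 0.17 (SE; adjusted p = 0.926). Snord72, within Rpl37, had the smallest p of its class, with 2.85, 3.69 and 3.62 CPM in CBM and 1.93, 2.28 and 2.57 in EBM. Its regions did not overlap, at a log2 fold change of -0.58 ± 0.23 (SE; adjusted p = 0.596). Snord49a had 5.97, 6.37 and 2.78 CPM in CBM and 2.93, 2.67 and 4.95 in EBM, where 1 library of each region stood with the other region. Snord83b, within Rpl3, went from 3.31 ± 0.488 CPM to 2.51 ± 0.66, and Snord37, within Eef2, from 1.22 ± 0.182 to 0.698 ± 0.426 (SD, n = 3), both with overlap between the regions. Only Snord55 and Snord70 had positive values in this class, at 0.06 and 0.18 on the log2 scale with adjusted p of 0.986 and 0.979, and that of Snord55 turned to -0.015 when only library sizes were used for scaling.

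Snora31 was the most abundant H/ACA member. It had 9.16, 7.05 and 4.32 CPM in CBM and 3.81, 4.23 and 3.21 in EBM, so the CBM libraries were spread widely but all lay above EBM. The log2 fold change was -0.86 ± 0.30 (SE; adjusted p = 0.546). Snora41 was tighter, at 2.1, 1.9 and 1.69 CPM in CBM and 0.883, 1.11 and 1.22 in EBM, and its log2 fold change was -0.82 ± 0.27 (SE; adjusted p = 0.516). For each of these genes the exact permutation test gave p = 0.1, the smallest two-sided p that 3 against 3 libraries allow. Snora57 showed no such gap, with 4.49 ± 1.01 CPM in CBM and 4.41 ± 0.961 in EBM (SD, n = 3). It lies opposite to Lbhd1, and whether strand was used in counting is not given in the sources used here, so its counts could include reads of that gene. Snora17 was the H/ACA member with a positive log2 fold change, 0.37 ± 0.53 (SE; adjusted p = 0.954).

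Of the members with other names, Gm25835 had the largest shift among the abundant ones. It had 10.6, 10.3 and 8.14 CPM in CBM and 1.6, 4.62 and 6.3 in EBM, a 2.32-fold higher mean in CBM, with EBM replicate 1 far below the other libraries. Its log2 fold change was -1.22 ± 0.45 (SE; adjusted p = 0.573), and -0.83 without that library. Gm23136 had 3.98, 7.11 and 5.56 CPM in CBM and 2.37, 2.62 and 3.79 in EBM, at a log2 fold change of -0.93 ± 0.30 (SE; adjusted p = 0.51). Gm22888, within Ubap2, had the smallest p of all members at low counts of 13, 16 and 16 in CBM and 6, 6 and 4 in EBM. Its libraries agreed closely within each region, and the log2 fold change was -1.34 ± 0.34 (SE; adjusted p = 0.361). The other abundant members of this group differed by less than their spread: Gm22806 had 6.94 ± 1.43 CPM in CBM and 6.44 ± 0.355 in EBM, Gm24494 had 6.09 ± 1.43 and 5.17 ± 0.546, and Gm22362 had 5.06 ± 0.523 and 5.59 ± 1.44 (SD, n = 3).

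Members with higher values in EBM were few. Gm26397, within Tomm20, had 1.59, 1.58 and 2.13 CPM in CBM and 2.6, 2.45 and 2.06 in EBM, with 1 library of each region crossing, at a log2 fold change of 0.42 ± 0.25 (SE; adjusted p = 0.744). Gm23301 and Gm22858 were at 0.37 and 0.44 on the log2 scale, with adjusted p of 0.796 and 0.896. Gm24347, named after its values were seen, had 4, 6 and 6 counts in CBM and 26, 15 and 7 in EBM, a step that rests mostly on EBM replicate 1. Without the filter on low counts its log2 fold change was 1.68 (adjusted p = 0.719, edgeR). Gm24347 lies opposite to Dennd4a, so the limit on strand holds for it too, and RefSeq lists it as a pseudogene.

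**Figure D4:**
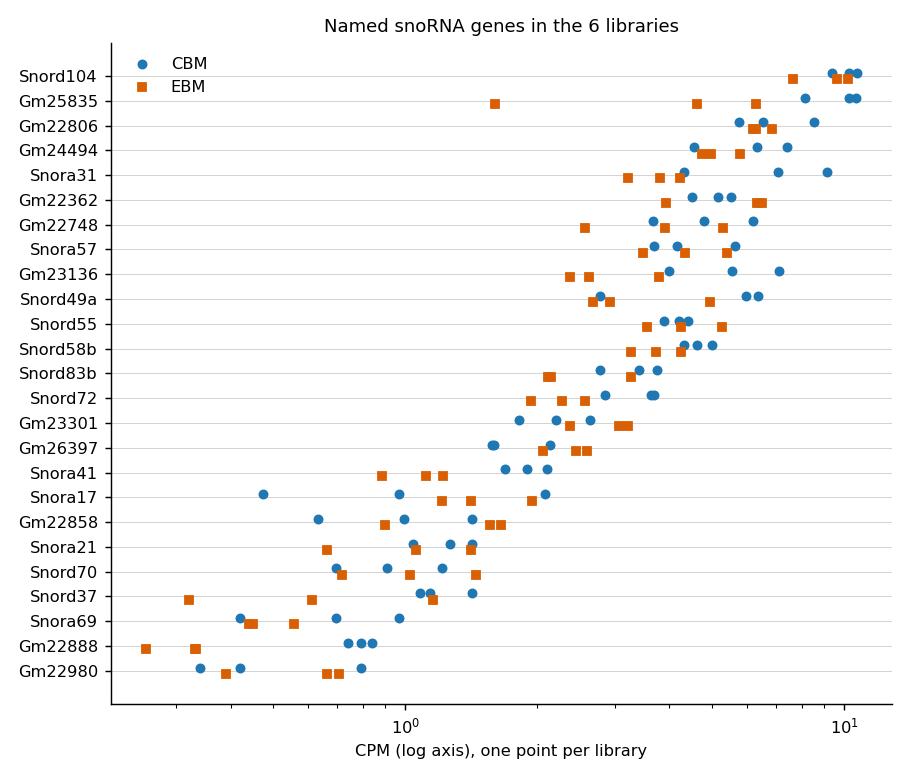
CPM on a log axis for the named snoRNA genes; each circle is a CBM library and each square an EBM library. Gm25835, Snora31, Gm23136, Snord72, Snora41 and Gm22888 have all EBM libraries below all CBM libraries, whereas Snord104 and Snord55 overlap.

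Most host genes had a log2 fold change above 0, whereas most snoRNA genes had one below 0. For 60 members M21 gave a host on the same strand, in 46 different host genes of which 43 were protein-coding, and 21 members sat in 14 ribosomal protein genes. Of the 45 hosts tested 36 had a log2 fold change above 0 and 9 below, with a median of 0.13, and 0 passed the adjusted threshold in edgeR. At an unadjusted p under 0.05, 2 hosts (4.44%) were lower, beside 3.9% of all genes, and 3 (6.67%) were higher, beside 4.01%. DESeq2 called 1 host, Odc1 (log2 fold change 0.67, adjusted p = 0.00134), the first enzyme of polyamine synthesis, for which edgeR gave an adjusted p of 0.193. The ribosomal protein genes as a whole, 80 of them tested, were above 0 in 75 cases with a median of 0.19, and the 14 that were hosts had a median of 0.20.

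In 58 pairs with both genes tested, the snoRNA gene was below 0 and the host above 0 in 42. The snoRNA change lay below the host change in 48. With 84.6% of members below 0 and 36 of 45 hosts above 0, many such pairs arise whichever host is set beside a member. Nothing about a member and its own host is therefore read from these counts. Of 38 such pairs of the other small intronic genes, the same mixed pool, with their enclosing gene, 24 had the smaller gene's change below. Over the 58 snoRNA and host pairs, the snoRNA change minus the host change had a median of -0.47 on the log2 scale. Eif4a1 was at 883 ± 28.3 CPM in CBM and 886 ± 53.3 in EBM (SD, n = 3), beside the lower values of Gm25835. Rpl4 was at 2302 ± 107 and 2579 ± 218 CPM, beside the lower values of Gm23136. As the log2 ratio of snoRNA to host, Gm25835 to Eif4a1 was -6.38, -6.36 and -6.77 in CBM and -8.93, -7.54 and -7.20 in EBM. This ratio was lower in every EBM library than in every CBM library for 22 of 60 pairs (36.7%) and higher for 0, and with the 40 other small intronic genes it was lower for 6 and higher for 2. Over the 60 pairs, the median ratio was -7.76, -7.75 and -7.89 in the CBM libraries, and -8.21, -8.02 and -8.04 in the EBM libraries. Host and snoRNA come from the same libraries and hosts with several members were counted more than once, so these pairs are not independent.

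As RPKM, the snoRNA genes were usually far below their hosts. The members' median length of 126 bases is below the 150-bp read length, so RPKM may not compare them evenly with their hosts, which was not tested. The median member had 9.99% of its host's RPKM, 30 of 60 had less than 10% and 5 had more than their host. Among these 5 hosts Snhg9 had a mean CPM below the 3-count floor in both regions. At the low end Gm26448 had 0.625% of the RPKM of Rpsa, and Gm24494 was at 1.15 times that of Rabggtb, a subunit of the enzyme that attaches geranylgeranyl groups to Rab proteins. A highly expressed host did not always mean a highly counted snoRNA gene: Eef2 had 5596 CPM in CBM and Snord37 within it 1.22.

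**Figure D5:**
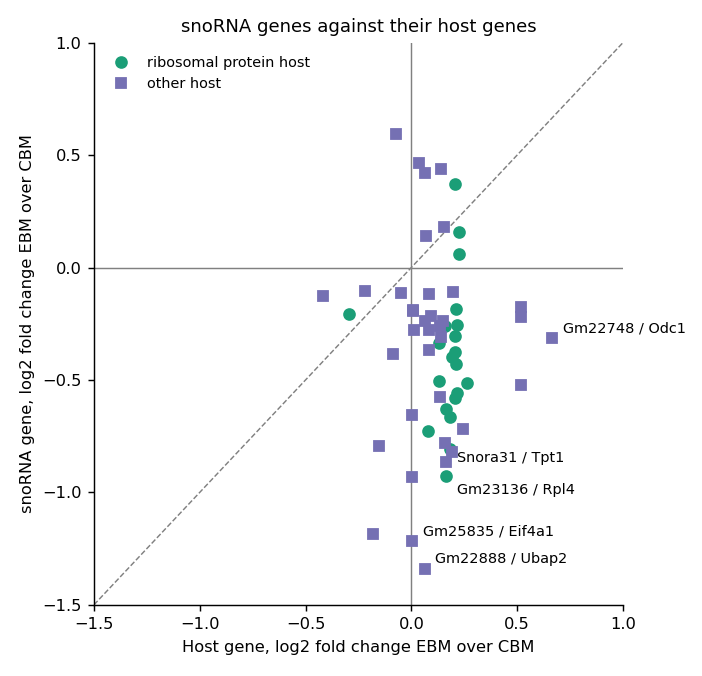
Each point is a member, with the log2 fold change of its host gene on the x axis and its own on the y axis, both EBM over CBM; circles mark ribosomal protein hosts, squares other hosts, and the dashed line equal change. Of 58 points 48 lie below the dashed line and 42 lie in the part with a host above 0 and a snoRNA gene below 0.

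Several hosts carried more than 1 member. Of 12 hosts with several members, the members tested were all below 0 in 9 and mixed in Rpl17 and Wdr43, and in the remaining 1 they were all above 0, which did not hold when only library sizes were used for scaling. With 84.6% of all members below 0, nothing about shared hosts is read from this count. In Rpl4 Gm23136 and Gm22571 together had 105, 178 and 144 counts in the CBM libraries and 72, 64 and 78 in the EBM libraries. The pair in Rpl5 had 70, 62 and 105 counts in CBM and 40, 49 and 42 in EBM, and the pair in Pabpc4 had 52, 100 and 81 in CBM and 34, 40 and 49 in EBM. With the near copies in Rpl5 and Pabpc4 these sums do not depend on how reads were split between the 2 members. Scaled as CPM, the Rpl5 pair did not overlap between the regions (3.26 to 5.21 in CBM and 2.21 to 2.73 in EBM), whereas the Pabpc4 pair did (2.96 to 5.26 and 1.88 to 3.15). Gm24620, another near copy of Gm25788 with too few counts to be a member, is not in the sum. The 3 members in Rpl17 together had 133, 180 and 168 counts in CBM libraries and 147, 144 and 116 in EBM libraries, which overlapped.

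Taken as a list, the genes for proteins of the snoRNA particles showed no such lower level in EBM, though single genes went either way. Of the C/D core, fibrillarin (Fbl), the methyltransferase, was at 207 ± 20.8 CPM in CBM and 233 ± 13.2 in EBM, and Nop56 at 312 ± 45.4 and 303 ± 33.9 (SD, n = 3). Nop58 and Snu13, the other C/D core proteins, had log2 fold changes of 0.15 and 0.16. Dyskerin (Dkc1), the pseudouridine synthase of the H/ACA core, was at 127 ± 27.8 CPM in CBM and 112 ± 13.6 in EBM. Its log2 fold change was -0.185 ± 0.175 (SE), with overlap between the regions. Nhp2, Nop10 and Gar1, its partners, had log2 fold changes of 0.07, 0.01 and 0.12. In all, 9 of 28 genes for core, assembly and trimming factors were below 0 and 19 above, with a median of 0.05. Of these 28, 0 passed the adjusted threshold in edgeR, as did 0% of all genes. At an unadjusted p under 0.05 in edgeR there were 0, beside 3.9% of all genes lower and 4.01% higher. DESeq2 also called 0, beside 1.39% of all genes in either direction. The factors of assembly and transport were 5 below and 9 above 0, and those of end trimming 2 below and 4 above. Tgs1, at -0.183, had every EBM library below every CBM library, as did 7.65% of all genes. The reverse held for Nufip1, Ruvbl1 and Exosc10 and for 7.47% of all genes, so nothing about the list is read from them.

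Counts of some other structured RNAs are given as a description, and how far these libraries hold short RNAs was not tested. Rn7sk, the abundant RNA of a complex that restrains transcription elongation, had 47, 43 and 25 counts in CBM and 25, 100 and 25 in EBM. Rmrp and Rpph1, the RNA parts of RNase MRP and RNase P, were listed at 0 in all libraries, which again says only that no read was assigned. Terc, the telomerase RNA, had 3 to 14 counts. Between libraries of a region the members' counts varied more than counting alone gives, with a median ratio of variance to mean of 2.4, and for 23 of 67 members the ratio was above 3. For 48 of the 65 members tested the SE of the log2 fold change was larger than the size of the members' median change, so a change of that size lay within 1 SE in them.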

How the data were processed

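The authors deposited raw counts per gene, without normalization, for 6 libraries, with a gene length that was used as deposited. The labels name HISAT2 2.0.5 and mm10. The counting tool and its strand setting are not given in the sources used here. No column was left out. Library preparation used a directional kit on rRNA-depleted RNA and 150-bp paired-end reads. The paper names an RNA extraction kit under quantitative RT-PCR, and its section on sequencing names none. How well extraction kept RNAs as short as the members was not tested.

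The members, lists and tests were chosen with earlier results of these data known. Genes were kept by filterByExpr, normalized by TMM and tested across all 13352 genes by the quasi-likelihood F test of edgeR 4.0.16 with Benjamini-Hochberg adjustment at 0.05. The SE is the log2 fold change over the square root of F. Exact permutation tests used log2 CPM with a prior count of 2 over 20 relabellings, two-sided. Alternatives were DESeq2 1.42.0, limma-voom (limma 3.58.1), other scaling and filters, a gene length correction (loess, span 0.3), a replicate block, each library left out, and other count minimums for members. The scripts were tested on simulated data.

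Named genes were, per class, the 5 with the most counts and the 3 with the smallest p in each direction, the members nearest the count minimum, their hosts and 8 core particle proteins. Hosts and exon overlaps come from GENCODE M21, whose coordinates equal the deposited ones for all 1507 snoRNA genes, and sequences from its transcripts. RefSeq names (GRCm38.p6) were matched by position for 61 of 67 members, and 2 of these, Gm24347 and Gm25965, are pseudogenes there. Identity is from global alignment (Biopython 1.88). The letters TGATG were chosen after the data were seen; windows downstream of the genes were not analysed here, and no sequence from chromosome 18 is shown. The values of 1 host gene are not reported here.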

Additional observations from a re-analysis of the deposited data

How the results depend on the processing

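The count of called members was 0 under every alternative run. The replicate block left it at 0, with 55 of 65 members below 0, medians of -0.29 for box C/D and -0.20 for H/ACA, and changed no other call; deviations of same-numbered libraries correlated at 0.68, -0.20 and 0.20, so the numbers were not taken as pairs. With library sizes only, 10 members in place of 6 had an unadjusted p under 0.05, and Snord55 turned to -0.015; with a member minimum of 120 counts, 34 of 40 tested were below 0, since fewer genes were members. DESeq2 called 1 host gene in place of 0. Leaving out each library in turn gave 4 to 11 members at an unadjusted p under 0.05 (11 without EBM replicate 3), 49 to 54 members below 0, box C/D medians of -0.37 to -0.22 and H/ACA medians of -0.39 to -0.13, box C/D sums at 77.2% to 87.3% of CBM and H/ACA sums at 71.4% to 88.4%. Single members near 0 changed sign in this way on the log2 scale, with Snora57 at -0.21 to 0.165, Gm22980 at -0.059 to 0.605, Gm22806 at -0.225 to 0.068, Snora17 at -0.006 to 1.08, Snord70 at -0.111 to 0.41 and Snord55 at -0.105 to 0.184. The cause was not tested. The count of pairs with the snoRNA change below the host change was 48 to 49 in these fits. Counting error alone gives a log2 fold change an SE of 0.373 for a member with 60 counts and 0.248 for the median member.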
